A study of Rattus norvegicus with 36 samples.

Results

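The messages of 10 matricellular and adhesive matrix proteins were followed in the thoracic descending aorta of male rats, across 3 strains and 2 diets. They were taken by gene symbol from a table of 26106 genes: Postn, Spp1, Mgp, Fn1, Thbs1, Thbs2, Tnc, Sparc, Ctgf and Cyr61. All 10 were found and all 10 were among the 13475 genes tested, whose mean over the libraries reached 0.5. SS is the Dahl salt-sensitive rat, and the others are congenic strains on its background. S2Ba carries the distal portion of chromosome 2 of the Brown Norway rat (BN), and S2Bb carries a middle segment of it. Feeding on normal salt chow or on chow with 4% NaCl (high salt) began at an age of 4 to 6 weeks and lasted until 12 to 13 weeks. Each normal salt group held 6 libraries, and the high salt groups held 5 for SS, 5 for S2Ba and 6 for S2Bb. Not analysed here were replicate 3 of SS and replicate 2 of S2Ba, both on high salt. The labels do not state that each library came from a separate rat, and p-values then reflect only how far these libraries vary, which may be technical.

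Matricellular proteins are secreted into the extracellular matrix but serve less as its scaffold than as signals between matrix and cell. They bind collagens and fibronectin on one side and integrins and other receptors on the other, and they modulate adhesion, migration and the activity of growth factors such as TGF-beta. In a resting artery many of them are made at a low rate, and injury, stretch or hypertension is known to raise several. Fn1 (fibronectin) is a structural adhesive glycoprotein and Mgp (matrix Gla protein) is an inhibitor of arterial calcification, and both are usually described beside this family.

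Values are normalised read values, which are reads divided by a factor of the library, and they sum to about the same total in every library. Depth was 8753735 to 15168833 reads per library. Values compare a gene between libraries and are not corrected for gene length, so they give no order among genes. The tissue label was checked with 8 smooth muscle genes, whose summed value was 22224 to 29928 in every library, while 6 T and B cell genes summed to 3.72 at most. The summed value of 8 macrophage genes was 324 to 556 in 32 libraries, 934 in S2Ba high salt replicate 4 and 967 in S2Bb high salt replicate 1. The summed value of 7 fibroblast genes had a median of 9695, 8374 and 9344 on normal salt and 6180, 5259 and 5862 on high salt in SS, S2Ba and S2Bb. That of 5 adipocyte genes ran from 50.6 to 1380 over the libraries. Its medians were 407, 191 and 244 on normal salt and 128, 126 and 140 on high salt. Of 8 cell cycle genes, 6, 8 and 7 rose on high salt in SS, S2Ba and S2Bb and none fell (limma, adjusted p under 0.05). Over all tested genes 4.44%, 8.12% and 10.7% rose. In bulk tissue, fewer cells of a type and less RNA per cell cannot be told apart. The numbers in the sample titles run higher for the high salt libraries than for the normal salt libraries, except in S2Bb high salt replicates 2 and 3. Those replicates have lower numbers than all S2Bb normal salt libraries, so in S2Bb the high salt numbers lie on both sides of the normal salt numbers. In no strain does a run of neighbouring numbers hold both diets. What the numbers stand for is not established here. Diet and a difference between sets of libraries with nearby numbers therefore cannot be told apart in any strain. On normal salt all S2Bb numbers lie below those of SS and S2Ba. Strain and such a difference cannot be told apart in those contrasts either.

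Postn rose on high salt in all 3 strains, and Spp1 and Fn1 rose in both congenic strains. Thbs1 rose in S2Ba, Mgp and Sparc rose in S2Bb, and Thbs2 and Ctgf fell in S2Bb. A gene was called where limma, fitted to all 6 groups on log2(value + 0.5), gave an adjusted p under 0.05 after Benjamini-Hochberg adjustment over all tested genes. In SS 1 of the 10 genes was called, which rose, where 8.38% of all tested genes were called, 4.44% rising and 3.94% falling. In S2Ba 4 of 10 were called and all 4 rose, where 15.2% of tested genes were called, 8.12% rising and 7.04% falling. In S2Bb 7 of 10 were called, of which 5 rose and 2 fell, where 22.1% of tested genes were called, 10.7% rising and 11.4% falling. The count in SS is near its background. The 10 genes were chosen with earlier results of these data known, so no excess over background is read from the counts in S2Ba and S2Bb. The median log2 fold change of the 10 genes on high salt was 0.14 in SS, 0.62 in S2Ba and 0.61 in S2Bb, against -0.02, -0.01 and -0.002 over all tested genes. The S2Bb count was 4 with the first pair of principal components of 15 clock genes as covariates. In SS high salt replicates 1, 2, 4, 5 and 6 the first component was -2.60, 8.08, 8.02, 6.66 and 4.84. It ran from -2.77 to -0.34 in SS normal salt. In S2Bb high salt it was 7.36 and 8.23 in replicates 5 and 6, and -3.20 to 1.16 in the rest. Of the 15 clock genes 7 rose and 3 fell in SS, 2 fell in S2Ba, and 1 rose and 2 fell in S2Bb. Except in replicate 1, diet and clock gene levels in SS cannot be told apart.

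**Figure D1:**
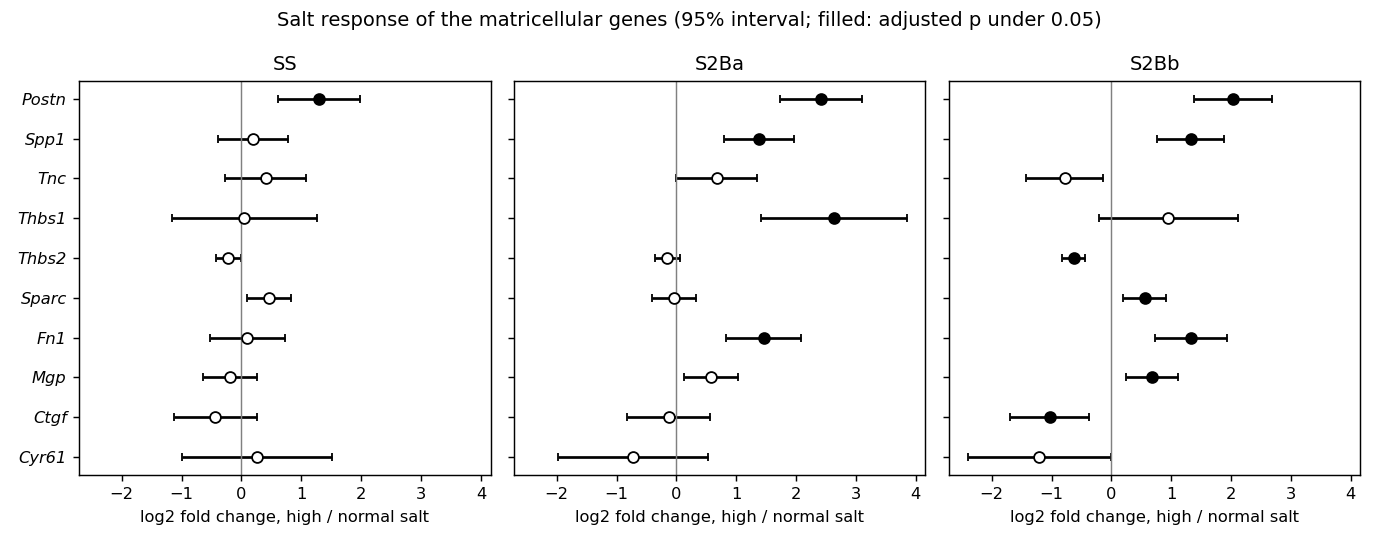
Log2 fold change on high against normal salt, on the log2(value + 0.5) scale, for each of the 10 genes in SS, S2Ba and S2Bb; bars are 95% intervals from limma and filled points have an adjusted p under 0.05. Postn has a filled point in every strain, at 1.29, 2.42 and 2.03, while Spp1 and Fn1 have open points near 0 in SS, at 0.19 and 0.09, and filled points in the congenic strains.

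Postn encodes periostin, which binds collagen and integrins, promotes collagen cross-linking and is made by activated fibroblasts and smooth muscle cells. In SS the 6 normal salt libraries ran from 253 to 901 with a median of 472, and the 5 high salt libraries stood at 995, 1273, 995, 1173 and 1026. In S2Ba the normal salt libraries ran from 206 to 938 with a median of 506, and the high salt libraries stood at 2575, 3259, 3653, 1443 and 2610.5. In S2Bb the normal salt libraries ran from 284 to 849 with a median of 459, and the high salt libraries from 1079.9 to 4063 with a median of 1864. In every strain each high salt library lay above all normal salt libraries of that strain. Over all tested genes, high salt libraries lay wholly above for 3.34% of genes in SS, 2.96% in S2Ba and 5.31% in S2Bb. The log2 fold change was 1.29 in SS (SE 0.34, adjusted p = 0.0167, limma), 2.42 in S2Ba (SE 0.34, adjusted p = 2.36e-05) and 2.03 in S2Bb (SE 0.32, adjusted p = 2.95e-05). In the order of mean levels the 3 normal salt groups came first, at 487 ± 237, 504 ± 207 and 533 ± 245 (SD, n = 6 each), and did not differ beyond their spread. SS on high salt came next at 1092 ± 125 (n = 5), a step beyond the spread, and S2Bb at 2114 ± 1053 (n = 6) and S2Ba at 2708 ± 840 (n = 5) followed without a further step beyond it. The call in SS was lost without SS normal salt replicate 6 (adjusted p = 0.0553), the library with the lowest Postn value. RefSeq places Postn and Cyr61 on chromosome 2, and the labels do not give the bounds of the BN segments.

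**Figure D2:**
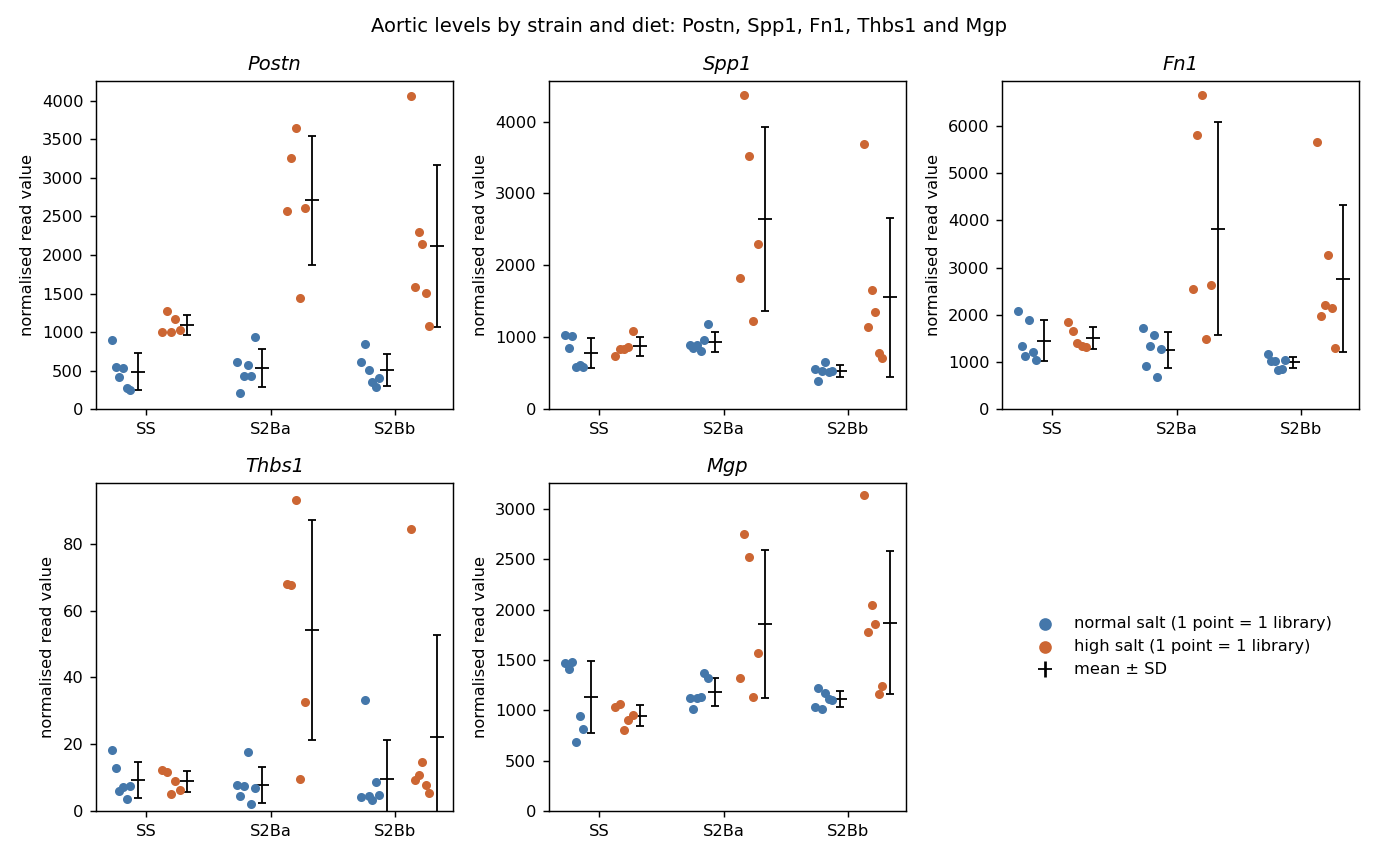
Normalised read value of Postn, Spp1, Fn1, Thbs1 and Mgp in each library, by strain, with normal salt in blue and high salt in orange; the bar beside each group is the mean and its whiskers are 1 SD (n = 5 or 6), ending at the axis where they would pass below 0. Postn is higher on high salt in every strain, and for Spp1, Fn1 and Thbs1 the high points belong to S2Ba and S2Bb on high salt, with Thbs1 in S2Bb carried by a single library at 84.4.

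Of the genes of proteins that bind mineral, Spp1 rose on high salt in both congenic strains and Mgp in S2Bb, and neither was called in SS. Spp1 encodes osteopontin, an integrin and CD44 ligand made by smooth muscle cells, macrophages and osteoblasts that restrains the growth of mineral crystals. In SS it ran from 590.4 to 1026 with a median of 732 on normal salt, and the high salt libraries at 741, 838, 836, 866 and 1081 lay among or just above them. In S2Ba it ran from 808 to 1188 with a median of 890.3 on normal salt, and the high salt libraries stood at 1828, 4364, 3528, 1223 and 2297, all of them higher. In S2Bb it ran from 391 to 653 with a median of 535 on normal salt and from 717 to 3691 with a median of 1244 on high salt, again without overlap. Over all tested genes, high salt libraries lay wholly above for 2.96% in S2Ba and 5.31% in S2Bb. The log2 fold change was 0.19 in SS (95% interval -0.39 to 0.78, adjusted p = 0.716, limma), 1.38 in S2Ba (SE 0.29, adjusted p = 0.00134) and 1.32 in S2Bb (SE 0.28, adjusted p = 0.000698). Means ran from 532 ± 85.0 in S2Bb on normal salt through 781 ± 210.04 and 872 ± 126 in SS on normal and high salt and 931 ± 137 in S2Ba on normal salt to 1555 ± 1105 in S2Bb and 2648 ± 1279 in S2Ba on high salt. Of these neighbours, S2Bb and SS on normal salt differed by more than the larger SD and the others did not.

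The libraries with the highest summed macrophage values, S2Ba high salt replicate 4 and S2Bb high salt replicate 1, held 3528 and 3691 of Spp1. The highest Spp1 value of all, 4364 in S2Ba high salt replicate 3, stood beside a macrophage sum of 423, within the range of the normal salt libraries (343 to 513). Of the 8 macrophage genes, none was called for salt in S2Bb and 1 rose in S2Ba, with 3 at an unadjusted p under 0.05 in each (limma). None of the 8 was at 0 in any group, and the part of macrophages in the Spp1 result was not tested.

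Mgp encodes matrix Gla protein, which binds calcium and BMP ligands after vitamin K-dependent carboxylation. SS libraries of Mgp ran from 680 to 1480 with a median of 1175 on normal salt, and the high salt libraries stood at 1030, 1061, 799, 899 and 953, all within that range. S2Ba libraries ran from 1012 to 1374 with a median of 1127 on normal salt, and stood at 1318, 2755, 2521, 1127 and 1571 on high salt, so that 3 of 5 lay above. S2Bb libraries ran from 1012 to 1223 with a median of 1107.5 on normal salt and from 1166 to 3139 with a median of 1817 on high salt. The log2 fold change was -0.20 in SS (95% interval -0.64 to 0.25), 0.57 in S2Ba (SE 0.22, adjusted p = 0.0742, limma) and 0.68 in S2Bb (SE 0.21, adjusted p = 0.0183). In S2Ba the call was made by edgeR and DESeq2 (adjusted p = 0.0398 and 0.0217). In S2Bb it was lost without replicate 1 of the high salt group (adjusted p = 0.0763) and with the clock components (adjusted p = 0.217). SS on high salt had the lowest mean, 948 ± 105 (n = 5), and S2Bb on normal salt stood next at 1109 ± 79.9 (n = 6), a gap beyond the spread.

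**Figure D3:**
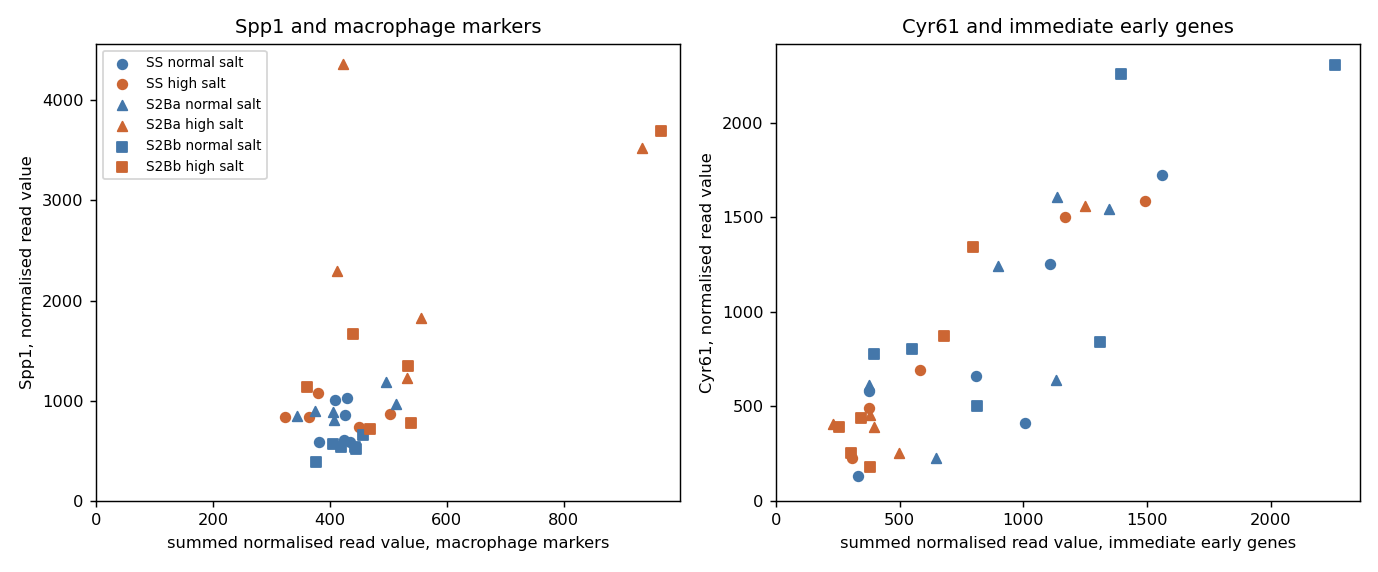
Left, normalised read value of Spp1 against the summed value of 8 macrophage genes, 1 point per library; right, Cyr61 against the summed value of 9 immediate early genes. Colour gives the diet and shape the strain. On the left, 2 libraries near 934 and 967 on the horizontal axis stand apart and both have high Spp1, while the highest Spp1 value, 4364, sits at 423; on the right, the library with the highest immediate early sum, 2262, also has the highest Cyr61 value, 2307.

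Fibronectin and thrombospondin 1 rose together in S2Ba. Fn1 encodes fibronectin, the adhesive glycoprotein on which periostin and tenascin C assemble. In SS it ran from 1052 to 2087 with a median of 1274 on normal salt, and stood at 1844, 1649, 1397, 1341 and 1311 on high salt, inside that range. In S2Ba it ran from 687 to 1711 with a median of 1308 on normal salt and stood at 2546, 5801, 6652, 1489.5 and 2637 on high salt, with 1 of 5 inside the normal salt range. In S2Bb it ran from 839 to 1159 with a median of 1025 on normal salt and from 1297 to 5666 with a median of 2183 on high salt, with no overlap. High salt libraries lay wholly above in S2Bb for 5.31% of tested genes. Log2 fold changes were 0.09 in SS (95% interval -0.53 to 0.72), 1.46 in S2Ba (SE 0.31, adjusted p = 0.00144, limma) and 1.33 in S2Bb (SE 0.29, adjusted p = 0.00133). None of the neighbours in the order of the 6 Fn1 means differed by more than the larger SD. Fn1 transcripts are spliced into forms that differ in their extra domains, which a value per gene does not separate.

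Thbs1 encodes thrombospondin 1, which binds CD36 and CD47 and can activate latent TGF-beta. Its levels were low, with 23 to 1120 reads per library. SS libraries ran from 3.46 to 18.3 with a median of 7.35 on normal salt and stood at 12.3, 11.6, 4.98, 8.999 and 6.22 on high salt. S2Ba libraries ran from 1.97 to 17.6 with a median of 7.24 on normal salt and stood at 68.2, 67.6, 93.3, 9.61 and 32.7 on high salt, with replicate 5 inside the normal salt range. S2Bb libraries ran from 3.29 to 33.2 with a median of 4.54 on normal salt and from 5.50 to 84.4 with a median of 9.99 on high salt. The top value of S2Bb on each diet was far from the rest, at 33.2 in normal salt replicate 2 with 8.65 next, and at 84.4 in high salt replicate 1 with 14.7 next. Log2 fold changes were 0.05 in SS (95% interval -1.16 to 1.26), 2.63 in S2Ba (SE 0.60, adjusted p = 0.00265, limma) and 0.95 in S2Bb (95% interval -0.20 to 2.11, adjusted p = 0.239).

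The other thrombospondin, Thbs2, fell in S2Bb. It encodes thrombospondin 2, a regulator of collagen fibril assembly that also restrains angiogenesis and binds matrix metalloproteinase 2. The S2Bb libraries ran from 199.7 to 320 with a median of 213 on normal salt and from 123 to 164 with a median of 157 on high salt, with all high salt libraries below, as for 5.04% of tested genes, and a log2 fold change of -0.63 (SE 0.098, adjusted p = 2.58e-05, limma). The SS libraries ran from 155 to 191 with a median of 170.4 on normal salt and stood at 149, 134, 159, 143 and 151 on high salt, a log2 fold change of -0.22 (95% interval -0.43 to -0.01, adjusted p = 0.176). The S2Ba libraries ran from 165 to 201 with a median of 177 on normal salt and stood at 163, 176, 124, 167 and 187 on high salt, a log2 fold change of -0.15 (95% interval -0.36 to 0.06, adjusted p = 0.34). On high salt the means of the strains were 147 ± 9.26, 163 ± 24.03 and 149.995 ± 15.1 in SS, S2Ba and S2Bb, and on normal salt S2Bb stood apart at 235 ± 45.7, beyond the spread above the next group, S2Ba at 180.4 ± 16.5.

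Sparc encodes osteonectin, a collagen-binding glycoprotein that assists collagen assembly and loosens cell adhesion. In SS it ran from 7140.4 to 11381 with a median of 9313 on normal salt, and the high salt libraries at 13230.4, 13900.3, 11880.3, 11514 and 12582 lay above all of them. Such a separation was found for 3.34% of tested genes. The log2 fold change in SS was 0.46 (SE 0.18), and its adjusted p of 0.107 in limma did not pass the threshold. In S2Bb it ran from 5135 to 13616 with a median of 10112 on normal salt and from 11840.5 to 15376 with a median of 13556 on high salt, a log2 fold change of 0.55 (SE 0.17, adjusted p = 0.0195, limma). Without S2Bb normal salt replicate 2, the lowest of its group, the adjusted p was 0.0799, and the call was also lost with no filter on low values (adjusted p = 0.156), with only the S2Bb groups in the fit (adjusted p = 0.0681) and with the clock components (adjusted p = 0.123). In S2Ba the diets overlapped widely, with medians of 11270.2 and 12261 and a log2 fold change of -0.04 (95% interval -0.41 to 0.33). Neighbours in the order of the 6 Sparc means did not differ beyond their spread.

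Tnc encodes tenascin C, a large glycoprotein that counters adhesion to fibronectin and is induced in remodelling arteries. It was low, with 85 to 1268 reads per library, and was not called for salt in any strain. Values in S2Bb were 15.1 to 94.6 with a median of 37.9 on normal salt and from 13.6 to 24.7 with a median of 22.2 on high salt, a log2 fold change of -0.78 (SE 0.32, adjusted p = 0.0717, limma) that edgeR and DESeq2 called (adjusted p = 0.0214 and 0.0165). Values in S2Ba were 9.67 to 35.7 with a median of 19.7 on normal salt and stood at 54.5, 24.4, 28.2, 17.8 and 32.6 on high salt, a log2 fold change of 0.67 (95% interval -0.004 to 1.34, adjusted p = 0.17). Values in SS were 10.2 to 25.5 with a median of 18.4 on normal salt and stood at 30.2, 34.5, 17.9, 18.9 and 18.8 on high salt, a log2 fold change of 0.40 (95% interval -0.27 to 1.08). The highest group mean, 42.7 ± 28.3 in S2Bb on normal salt, rests in part on replicate 2 at 94.6.

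**Figure D4:**
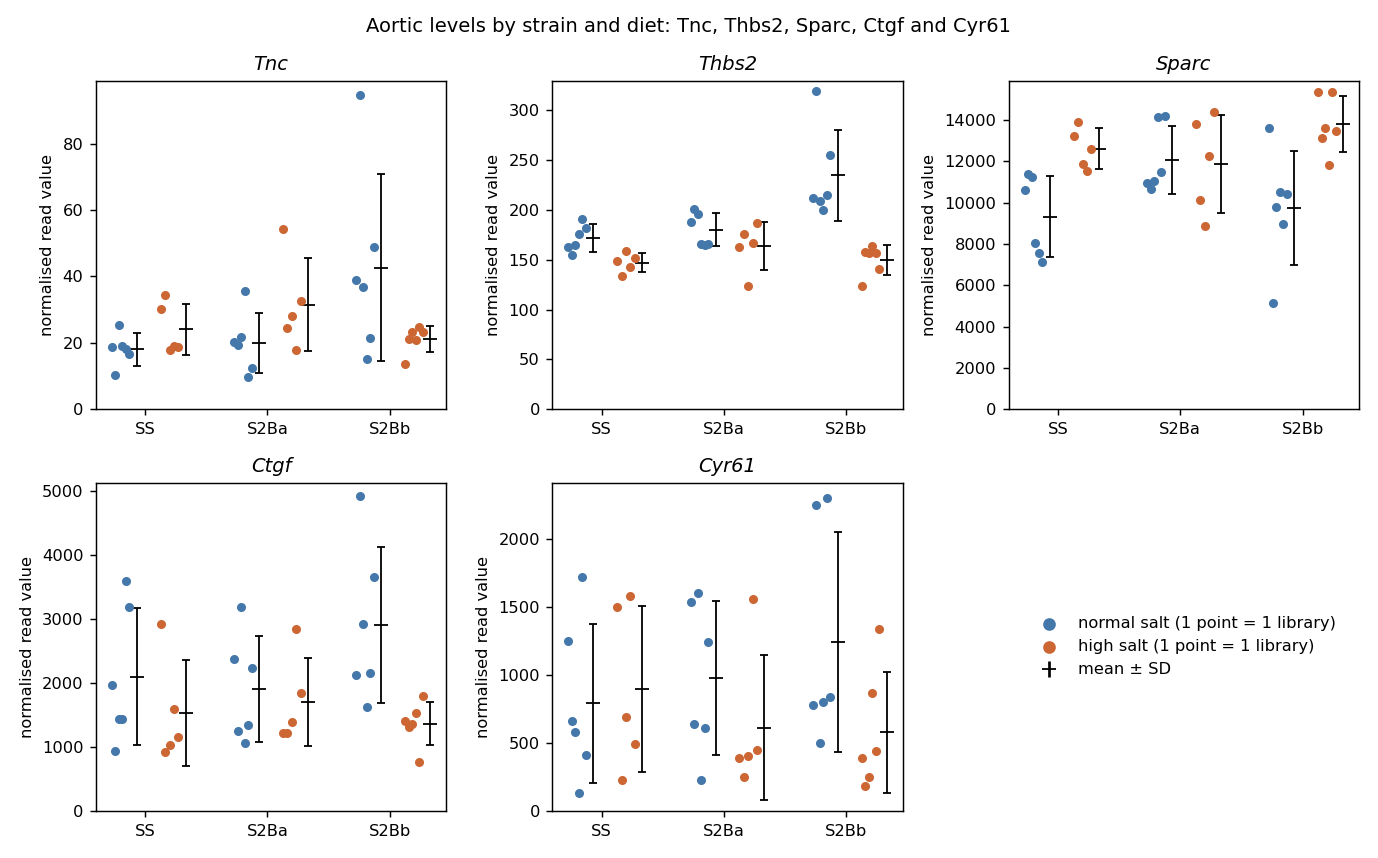
Normalised read value of Tnc, Thbs2, Sparc, Ctgf and Cyr61 in each library, by strain, with normal salt in blue and high salt in orange; the bar beside each group is the mean and its whiskers are 1 SD (n = 5 or 6). In S2Bb all 6 high salt values of Thbs2, 123 to 164, lie below the normal salt values, 199.7 to 320, while Cyr61 spreads widely within every group.

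Ctgf and Cyr61 encode the CCN proteins CCN2 and CCN1, which bind integrins and heparan sulfate and are widely used as readouts of the YAP and TEAD transcription factors and of mechanical load. Ctgf fell in S2Bb, and Cyr61 was not called for salt in any strain. In S2Bb Ctgf ran from 1617 to 4915 with a median of 2537 on normal salt and from 771 to 1798 with a median of 1379.8 on high salt, and the lowest normal salt value lay below the highest high salt value. The log2 fold change was -1.03 (SE 0.33, adjusted p = 0.0201, limma). It was not called without S2Bb normal salt replicate 2 (adjusted p = 0.0646), without S2Bb high salt replicate 5 (adjusted p = 0.062) or with the clock components (adjusted p = 0.0554). In SS Ctgf ran from 931 to 3599 with a median of 1702.7 on normal salt and stood at 2927, 918, 1036, 1593 and 1157 on high salt, a log2 fold change of -0.43 (95% interval -1.13 to 0.26). In S2Ba it ran from 1056 to 3179.5 with a median of 1784.5 on normal salt and stood at 1216, 1217, 1389, 2846 and 1846 on high salt, a log2 fold change of -0.13 (95% interval -0.82 to 0.57).

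Cyr61 spread widely within groups, with a coefficient of variation of 57.8% to 87.4% in the 6 groups. In SS it ran from 131 to 1723 with a median of 618 on normal salt and stood at 1499.8, 228, 693, 1584 and 491 on high salt. In S2Ba it ran from 227 to 1606 with a median of 941 on normal salt and stood at 389.6, 251, 406, 1558 and 452 on high salt, with replicate 5 far above the other 4. In S2Bb it ran from 502 to 2307 with a median of 820.4 on normal salt and from 181 to 1341 with a median of 416 on high salt. Log2 fold changes were 0.26 in SS (95% interval -0.99 to 1.51), -0.72 in S2Ba (95% interval -1.97 to 0.53) and -1.20 in S2Bb (95% interval -2.39 to -0.01, adjusted p = 0.142, limma). Immediate early genes respond within minutes to stimulation and to handling of tissue. The 9 measured here encode transcription factors such as Fos and Egr1. Their summed value had a median of 908, 1014 and 1062 on normal salt and 582, 394 and 360.4 on high salt in SS, S2Ba and S2Bb. For salt, none of the 9 was called in SS or S2Ba (2 and 1 at an unadjusted p under 0.05, limma), and in S2Bb 1 rose and 2 fell. The library with the highest immediate early sum was also the one with the highest Cyr61 value in SS normal salt (replicate 5, 1562), SS high salt (replicate 5, 1493), S2Ba high salt (replicate 5, 1249), S2Bb normal salt (replicate 5, 2262) and S2Bb high salt (replicate 6, 797). In S2Ba normal salt the highest immediate early sum was in replicate 1 (1347) and the highest Cyr61 value in replicate 3, and replicate 4 had a higher sum than replicate 5 (646 and 376) but less Cyr61 (227 and 612). The part of such handling in the levels of Cyr61 and Ctgf was not tested.

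The promoters are shown for these genes because the TEAD recognition letters lie in them and because YAP and TEAD targets are a known group. RefSeq promoter windows of build GRCr8 were at hand for 7 of the 10 genes, Postn, Spp1, Tnc, Thbs1, Sparc, Ctgf and Cyr61, and the 250 bases before the annotated start were searched on both strands. The letters CATTCC, or GGAATG on the other strand, occurred 3 times for Ctgf, at 166, 101 and 92 bases before the start. They occurred once for Cyr61, at 113 bases, once for Thbs1, at 47 bases, and once for Sparc, at 33 bases, and not in the windows of Postn, Spp1 or Tnc. Of 33469 rat promoters of the same length, 12.06% hold the letters at least once and 0.08067% hold them 3 or more times. The other motifs searched were TGACTCA of AP-1, GTCTAGAC of SMAD proteins, CACGTG of E-box proteins such as the clock factors, and 2 forms of the serum response element. None of these lay in the 7 windows, and they are held by 4.046%, 0.1733%, 5.593%, 0.03287% and 0.02988% of all promoters. A match is a description of the letters and not a measured binding site. The windows of Ctgf, Cyr61 and Thbs1 are printed 5′ to 3′ on the strand of the gene with the TEAD letters in capitals. They lie at chr1:22624615-22624864 on the minus strand for Ctgf (Ccn2 in RefSeq), at chr2:237225690-237225939 on the minus strand for Cyr61 (Ccn1) and at chr3:125510000-125510249 on the plus strand for Thbs1.
Ctgf: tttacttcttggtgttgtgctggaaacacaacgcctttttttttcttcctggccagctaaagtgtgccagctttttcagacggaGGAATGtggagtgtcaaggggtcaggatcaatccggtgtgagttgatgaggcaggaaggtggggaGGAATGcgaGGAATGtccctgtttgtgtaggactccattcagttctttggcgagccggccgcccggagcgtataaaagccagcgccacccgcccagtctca
Cyr61: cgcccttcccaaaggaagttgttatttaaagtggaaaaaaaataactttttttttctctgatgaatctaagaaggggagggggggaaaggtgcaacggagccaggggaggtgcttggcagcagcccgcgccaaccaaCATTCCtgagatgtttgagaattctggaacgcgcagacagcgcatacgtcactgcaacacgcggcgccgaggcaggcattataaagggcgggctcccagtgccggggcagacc
Thbs1: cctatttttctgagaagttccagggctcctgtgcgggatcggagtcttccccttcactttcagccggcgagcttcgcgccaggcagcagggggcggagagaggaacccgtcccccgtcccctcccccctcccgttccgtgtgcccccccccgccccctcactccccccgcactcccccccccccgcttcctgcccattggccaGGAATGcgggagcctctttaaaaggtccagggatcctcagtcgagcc

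Differences between strains on normal salt were few. Of the 10 genes, 0 were called between S2Ba and SS, where 0.267% of tested genes were called. In limma 1 had an unadjusted p under 0.05, and edgeR and DESeq2 made 0 calls. The log2 differences of the 10 genes ran from -0.30 for Thbs1 to 0.44 for Cyr61, and the lowest adjusted p was 0.29, for Sparc. Thbs2 was higher in S2Bb than in SS, by 0.43 on the log2 scale (SE 0.098, adjusted p = 0.0162, limma), where 1.44% of tested genes were called and 0.475% were higher. Its 6 S2Bb libraries lay above all SS libraries, as for 0.727% of tested genes. It was also higher in S2Bb than in S2Ba, by 0.37 (SE 0.098, adjusted p = 0.0341), where 3.15% of tested genes were called and 1.71% were higher. Without S2Bb normal salt replicate 2, the library at 320, the adjusted p was 0.0511 against SS and 0.118 against S2Ba. With the clock components it was 0.181 and 0.117. Altogether the Thbs2 call was lost in 4 of 20 alternative settings against SS and in 8 of 20 against S2Ba. Spp1 in S2Bb lay below all 6 S2Ba libraries, a separation in that direction that 1.07% of tested genes showed, but its log2 difference of -0.81 (SE 0.28) had an adjusted p of 0.0983 in limma. With only the S2Bb and S2Ba groups in the fit Spp1 was called (adjusted p = 0.00494) and Thbs2 was not (adjusted p = 0.121). Against SS, Spp1 in S2Bb differed by -0.53 (adjusted p = 0.411, limma). Tnc in S2Bb differed by 1.03 against SS (SE 0.32, adjusted p = 0.0937, limma) and by 0.96 against S2Ba (SE 0.32, adjusted p = 0.0864). Against SS it was called by edgeR and DESeq2 (adjusted p = 0.0415 and 0.0158), and against S2Ba by DESeq2 (adjusted p = 0.0321). The other 7 genes differed between S2Bb and either strain by -0.51 to 0.82, with an adjusted p of 0.275 or more.

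On high salt Spp1 and Mgp were higher in S2Ba than in SS, by 1.47 (SE 0.30, adjusted p = 0.0101) and 0.89 (SE 0.23, adjusted p = 0.0399) on the log2 scale in limma, 2 of 10 where 1.73% of tested genes were called and 0.757% were higher. For Postn, Spp1 and Mgp the 5 S2Ba libraries lay above all 5 SS libraries, as was so for 2.29% of tested genes. Postn, Thbs1 and Fn1 had log2 differences of 1.25, 2.28 and 1.14 with adjusted p of 0.0577, 0.0502 and 0.0595. The other 5 ran from -0.54 for Cyr61 to 0.34 for Tnc, with an adjusted p of 0.535 or more. In edgeR and in DESeq2 the called genes were Postn, Spp1, Thbs1, Fn1 and Mgp, and with the clock components none was. The Spp1 call was lost without S2Ba high salt replicate 4 (adjusted p = 0.0529, limma), the S2Ba library with the macrophage sum of 934. The Mgp call was lost in 11 of 18 alternative settings. Of the 8 macrophage genes, 1 was called higher in S2Ba than in SS on high salt and 4 had an unadjusted p under 0.05 (limma). Their median log2 difference was 0.49, and the part of macrophages was not tested. Arntl, a core activator of the circadian clock, stood at 19.8 ± 30.7 in SS (n = 5) and 52.1 ± 24.99 in S2Ba (n = 5) on high salt, and the part of sampling hour in these differences was not tested. Between S2Bb and SS on high salt 0 genes were called, where 0.267% of tested genes were, with 4 at an unadjusted p under 0.05 and 1 call, Mgp, in edgeR (adjusted p = 0.048) and in DESeq2 (adjusted p = 0.00446). Mgp in all 6 S2Bb libraries lay above the 5 SS libraries, as was so for 0.66% of tested genes, with a log2 difference of 0.91 (SE 0.22, adjusted p = 0.0725, limma). Postn there differed by 0.83 (95% interval 0.14 to 1.51, adjusted p = 0.454). The other 8 ran from -0.64 for Cyr61 to 0.72 for Fn1. Between S2Bb and S2Ba on high salt 0 were called, where 0.609% of tested genes were, with 2 at an unadjusted p under 0.05 and 0 in edgeR and DESeq2. Log2 differences ran from -1.63 for Thbs1 (95% interval -2.85 to -0.42) to 0.23 for Sparc. Without S2Bb high salt replicate 1 there were 2, Spp1 and Thbs1, lower in S2Bb, with adjusted p of 0.00882 and 0.033.

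Whether the salt response differed between strains was tested as an interaction. None of the 10 genes was called in limma for any pair of strains, nor in edgeR or DESeq2, where 0%, 0.171% and 0% of tested genes were called for S2Ba and SS, S2Bb and SS, and S2Bb and S2Ba. At an unadjusted p under 0.05 there were 5, 5 and 4 of them. The difference in log2 fold change between S2Ba and SS was 1.12 for Postn (95% interval 0.16 to 2.09), 1.18 for Spp1 (0.35 to 2.01), 2.59 for Thbs1 (0.87 to 4.30) and 1.37 for Fn1 (0.48 to 2.25), with adjusted p of 0.449, 0.36, 0.324 and 0.307. For Mgp it was 0.77 (0.13 to 1.40, adjusted p = 0.429), and the other 5 ran from -0.98 for Cyr61 to 0.30 for Ctgf. Between S2Bb and SS it was 0.74 for Postn (-0.20 to 1.69), 1.13 for Spp1 (0.32 to 1.94), 1.23 for Fn1 (0.37 to 2.10) and 0.87 for Mgp (0.25 to 1.49), with adjusted p of 0.529, 0.225, 0.217 and 0.222. It was -1.18 for Tnc (-2.11 to -0.25) and -0.41 for Thbs2 (-0.70 to -0.12), with adjusted p of 0.275 and 0.218, and the other 4 ran from -1.46 for Cyr61 to 0.90 for Thbs1. Between the congenic strains it was -1.45 for Tnc (-2.38 to -0.52), -0.48 for Thbs2 (-0.77 to -0.19) and -0.38 for Postn (-1.33 to 0.56), with adjusted p of 0.268, 0.235 and 0.865. The other 7 ran from -1.68 for Thbs1 (-3.36 to -0.01) to 0.59 for Sparc (0.08 to 1.10). Calls in a congenic strain that were not made in SS are therefore not shown to differ from SS. When S2Ba high salt replicate 5, S2Bb normal salt replicate 2 and S2Bb high salt replicate 1 were left out together, Spp1, Thbs1 and Fn1 were called for S2Ba and SS (adjusted p = 0.0161, 0.00794 and 0.0241). Those libraries were chosen after their values were seen, so that result is no separate support.

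Within groups, libraries with more Postn than their group's mean tended to have more Fn1, Thbs1, Mgp and Spp1, though not in every library. Over the 34 libraries, with each group's mean removed on the log2 scale, Pearson's r with Postn was 0.71 for Fn1 (Spearman's rho 0.77), 0.69 for Thbs1 (rho 0.67), 0.60 for Mgp (rho 0.56) and 0.59 for Spp1 (rho 0.54). The permutation p, from 100000 rearrangements of libraries within their groups, was 2e-05, 0.0001, 0.00052 and 0.00049 for r, with adjusted values over 9 relations of 0.00018, 0.00045, 0.00117 and 0.00117. For rho it was 1e-05, the smallest these rearrangements can give, 7e-05, 0.0021 and 0.00346, with adjusted values of 9e-05, 0.000315, 0.0063 and 0.00778. Without S2Ba normal salt replicate 2 and S2Bb high salt replicate 1, the libraries farthest from the median, r was 0.68, 0.66, 0.55 and 0.54. The other 5 genes had r between -0.21 and 0.16 with Postn and adjusted permutation p of 0.471 or more. Among the other pairs the highest r was 0.87 between Spp1 and Mgp, and Thbs1 and Fn1 had 0.74. Ctgf and Cyr61 had r of 0.60 with each other and between -0.25 and -0.03 with Postn, Fn1, Thbs1, Spp1 and Mgp. In S2Bb high salt, replicates 5 and 6 stood apart on the first clock component. They had the lowest Postn (1513 and 1080), Spp1 (775 and 717), Thbs1 (7.84 and 5.50) and Mgp (1166 and 1237) of their group. For Fn1, replicate 6 was lowest (1297) but replicate 5 (2148) lay above replicate 2 (1983). In SS high salt, replicate 1 stood apart and had the highest Fn1 (1844) and Thbs1 (12.3) but the lowest Spp1 (741). The part of the clock in this co-variation was not tested.

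**Figure D5:**
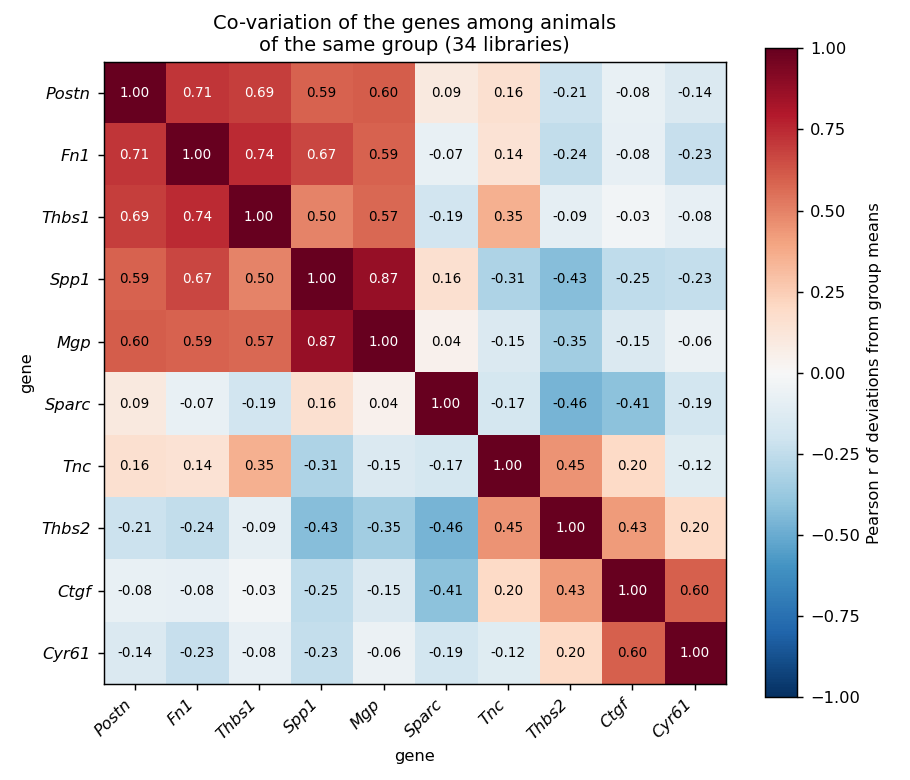
Pearson r between genes over 34 libraries, computed on log2(value + 0.5) after the mean of each of the 6 groups was removed; red is positive and blue negative. Postn, Fn1, Thbs1, Spp1 and Mgp form a block with r from 0.50 to 0.87, and Ctgf and Cyr61 pair at 0.60.

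Genes whose levels were most like those of the members were sought among 9531 genes whose mean reached 5. Over all 34 libraries Postn was most like Tnnc1, a calcium sensor of striated muscle (r = 0.95), Nkd2, an inhibitor of Wnt signalling (0.94), Gdf6, a BMP family ligand (0.94), Fxyd5, a regulator of the sodium pump (0.93), and Man2b1, a lysosomal mannosidase (0.92). With group means removed the order was Nkd2 (0.89), Tnnc1 (0.86), Bcat1, a branched-chain aminotransferase (0.86), Sphkap (0.86) and Cd109, a TGF-beta co-receptor (0.86). Nkd2 ran from 14.7 to 53.1 in SS on normal salt and from 66.8 to 90.02 on high salt, and stood at 179 ± 66.2 in S2Ba and 107 ± 49.7 in S2Bb on high salt. Spp1 was most like Ccng1 (0.95), Hrct1 (0.94), Abhd6 (0.93), Cd109 (0.92) and Mustn1 (0.92), and Fn1 most like Abhd2 (0.92), Mfge8 (0.91), Vwa1 (0.904), Sulf1 (0.903) and Cdh13 (0.902). Ctgf was most like Zfp36l1 (0.81), Otud1 (0.80), Nfil3 (0.79), Ier5 (0.79) and Atf3 (0.77). Cyr61 was most like Btg2 (0.89), Dusp1 (0.88), Otud1 (0.86), Ptgs2 (0.85) and Ppp1r15a (0.84). These correlations describe the 34 libraries, which share diets and strains.

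Of 24 other matricellular genes tested, 2 rose and 3 fell on high salt in SS, 4 rose and 4 fell in S2Ba, and 6 rose and 3 fell in S2Bb, where 8.38%, 15.2% and 22.1% of all tested genes were called. Ibsp, which encodes bone sialoprotein, a relative of osteopontin, rose from 7.73 ± 1.53 to 56.0 ± 30.2 in S2Ba (log2 fold change 2.60, adjusted p = 3.43e-05, limma) and from 4.58 ± 1.22 to 33.1 ± 18.4 in S2Bb (2.58, adjusted p = 5.73e-06). Tnxb, which encodes tenascin X of connective tissue, fell in all 3 strains, from 505 ± 113 to 273 ± 52.2 in SS, from 340 ± 121 to 109 ± 25.1 in S2Ba and from 491 ± 45.4 to 184 ± 62.5 in S2Bb. Its log2 fold changes were -0.88, -1.58 and -1.48 (adjusted p = 0.0145, 2.78e-05 and 9.47e-06). Fbln1, the matrix glycoprotein fibulin 1, also fell in each strain, by 0.63, 0.69 and 0.92 on the log2 scale (adjusted p = 0.00912, 0.00159 and 2.26e-05), and Fbln7, another fibulin, rose by 1.00, 1.56 and 1.42 (adjusted p = 0.0316, 0.000518 and 0.000406). Tnxb and Fbln1 are fibroblast products, and the fibroblast sums given above had lower medians on high salt in each strain. Of the 7 fibroblast genes, 1, 2 and 2 fell in SS, S2Ba and S2Bb and none rose, with median log2 fold changes of -0.28, -0.32 and -0.06. The part of that difference in these results was not tested.

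Of 23 receptor genes of these proteins tested, 3 rose and 1 fell in SS, 3 rose and 5 fell in S2Ba, and 6 rose and 5 fell in S2Bb, beside the same 8.38%, 15.2% and 22.1% of all tested genes. The receptor genes that fell are not named here. Sdc2, a heparan sulfate co-receptor, rose in each strain, by 0.32, 0.48 and 0.38 on the log2 scale (adjusted p = 0.0106, 0.000104 and 0.000342). Cd44, a receptor of osteopontin and hyaluronan, rose in S2Ba from 51.4 ± 20.9 to 100.9 ± 20.9 (log2 fold change 1.03, adjusted p = 0.003, limma) and in S2Bb from 43.7 ± 22.2 to 72.5 ± 10.5 (0.83, adjusted p = 0.00728). In SS it stood at 56.0 ± 15.9 and 78.0 ± 10.01. Itga1, the collagen-binding integrin alpha 1, rose in S2Bb from 90.4 ± 9.59 to 145 ± 11.8 (0.68, adjusted p = 4.49e-07), and its response there differed from that of SS by 0.56 (SE 0.11, adjusted p = 0.0288, interaction in limma). On normal salt Itga1 was lower in S2Bb than in SS by 0.47 and than in S2Ba by 0.62 (adjusted p = 0.000729 and 4.41e-06).

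Of 23 genes of TGF-beta signalling and of the YAP and TEAD pathway tested, 3 rose and 2 fell in SS, 3 rose and 1 fell in S2Ba, and 3 rose and 7 fell in S2Bb, where 8.38%, 15.2% and 22.1% of all tested genes were called. Ltbp2, a latent TGF-beta binding protein of elastic fibres, rose in each strain, from 1141 ± 232 to 2106 ± 402 in SS, from 1367 ± 319 to 3423 ± 1114 in S2Ba and from 1079.8 ± 149 to 2658 ± 1016 in S2Bb (adjusted p = 0.0129, 0.000189 and 7.98e-05, limma). Smad3, a transducer of TGF-beta signals, fell in each, by 0.56, 0.60 and 0.81 on the log2 scale (adjusted p = 0.0144, 0.0039 and 5.42e-05). Of 15 genes of mineralisation and of the partners of Mgp tested, 3, 6 and 4 rose in SS, S2Ba and S2Bb and none fell, where 4.44%, 8.12% and 10.7% of all tested genes rose. Slc20a2, a phosphate transporter, rose in each strain by 0.46, 0.45 and 0.42 (adjusted p = 0.00391, 0.00163 and 0.000983). Bmp4, a ligand that Mgp binds, rose in S2Ba by 0.93 (adjusted p = 0.000179), and Nt5e, an ectonucleotidase that makes adenosine, rose in S2Ba by 0.80 and in S2Bb by 1.07 (adjusted p = 0.00366 and 6.21e-05). The median log2 fold changes of these lists lay between -0.15 and 0.42 on high salt.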

How the data were processed

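Aortic total RNA was sequenced, and 34 libraries of 36 labelled samples in 6 groups were analysed. The tools listed in the submitters' processing notes are STAR 2.3.1, edgeR 3.6.8, FastQC, bcl2fastq 1.8.4 and R 3.2.3. What each did, the counter, the annotation, the build and any use of strand: not given in the sources used here. The signal values the authors deposited are whole multiples of the value of 1 read in each library (0.0659 to 0.12), and 100% of them came out as whole reads within 0.01. With no counts deposited, the test fixed for normalised values was used. Rows without a symbol (29 of 26106) stayed in the fit.

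Limma 3.58.1 in R 4.3.3, with an intensity trend, was fitted to log2(value + 0.5) of the 13475 genes with a mean of at least 0.5. This scale understates the change of low genes. The 6 groups shared the estimate of the spread, 12 contrasts were taken, and p-values are 2-sided. Alternatives were pseudocount 1, no filter, upper quartile scaling, the contrast's own groups, clock components as covariates, edgeR 4.0.16 and DESeq2 1.42.0 on recovered reads, each library left out and, added after the data were seen, 3 libraries left out together. The test was also tried on simulated reads, with the same spread set for all genes and changes placed in SS high salt only. The genes here differ in spread, so that trial is no support for the calls.

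The rule for naming took all 10 members, given by value or within a range in each contrast, and the 5 genes most like Postn, Spp1, Fn1, Ctgf and Cyr61. Of each companion list and contrast it allowed up to 4 called genes with the smallest adjusted p. Not all of those are printed, so the named genes do not stand for their whole list. The members and lists were chosen with earlier results of these data known. Listed genes without a match were Mkl2, Ank, Col1a2, Pecam1, Myh2 and Ier2. Neighbours in an order of means are said not to differ beyond their spread where their gap is below the larger SD. Sequences are from RefSeq, build GRCr8.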

Additional observations from a re-analysis of the deposited data

Results flagged for a closer look

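Among the 60 sets of values of a gene in a group, 5 had a lowest or highest library whose gap to the next, divided by the whole range, passed Dixon's limit. For independent sets of normally distributed values, chance would give about 1 in 20, which is 3 of 60. The values were not put on the log2 scale for this and the sets share libraries, so that number is only a rough guide. In S2Bb high salt replicate 1 this held for 3 genes: Spp1 at 3691 (next 1662), Thbs1 at 84.4 (next 14.7) and, on the low side, Tnc at 13.6 (next 20.8). Its macrophage sum of 967 was the highest of all libraries. Thbs1 in S2Bb normal salt replicate 2 stood at 33.2 with 8.65 next. That library also held the highest Postn (849), Mgp (1223), Tnc (94.6), Thbs2 (320) and Ctgf (4915) and the lowest Spp1 (391) and Sparc (5135) of its group. Cyr61 in S2Ba high salt replicate 5 stood at 1558 with 452 next, and that library had the lowest Postn, Spp1, Fn1, Thbs1 and Mgp values of its group. Its immediate early sum was 1249, against 496 or less in the other 4 libraries of the group.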

How the results depend on the processing

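No result changed direction while called, and leaving 1 library out moved the number of called members within 0 to 1 for salt in SS, 4 to 5 in S2Ba, 5 to 8 in S2Bb, 0 to 5 for S2Ba against SS on high salt, 0 to 2 (normal salt) and 0 to 1 (high salt) for S2Bb against SS, and 0 to 2 on either diet for S2Bb against S2Ba. With clock components it went from 7 to 4 for salt in S2Bb, from 2 to 0 for S2Ba against SS on high salt, and from 1 to 0 for S2Bb against SS and against S2Ba on normal salt. With edgeR and with DESeq2 it was 5 for S2Ba against SS on high salt, 2 for S2Bb against SS on normal salt and 1 on high salt. DESeq2 gave 2 for S2Bb against S2Ba on normal salt. With no filter on low values it was 1 for S2Ba against SS on high salt and 0 for S2Bb against S2Ba on normal salt, and with the contrast's own groups it was 0 for S2Bb against SS on normal salt. With the 3 libraries left out it was 4 for salt in S2Bb, 5 for S2Ba against SS on high salt, 0 and 3 for S2Bb against S2Ba on normal and high salt, and 3 for the interaction of S2Ba and SS. The cause was not tested. Fewer libraries are compared where libraries are left out. Pseudocount 1 and upper quartile scaling moved no count of called members by over 1.5 times. No paired analysis was possible because the replicate numbers only name libraries, in accession order, and tie none across groups. Depth limits Thbs1 and Tnc most, with as few as 23 and 85 reads in a library.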
